A study of Mus musculus with 24 samples.

Results

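Liver of wild type C57BL/6 mice given TCPOBOP was compared between 60 days of age (adult) and 5 days of age (newborn). The comparison takes all 3 libraries labelled wild type, day 60 and TCPOBOP against all 3 labelled wild type, day 5 and TCPOBOP, so its members are 6 of the 24 libraries of the series, chosen by label alone. The quantity compared is the level a gene reached under the ligand, not its change over vehicle. Levels are FPKM (fragments scaled to transcript length and library total) and differences are on the log2(FPKM + 1) scale, day 60 minus day 5. For reference stand 6 wild type libraries from corn oil mice of the same ages, and 6 libraries from hCAR-TG mice, a C57BL/6 line in which human CAR was knocked in, that received CITCO at the same ages. The hCAR-TG corn oil libraries of these ages served to choose the genes that CITCO raised. The labels give no dose, route, duration or sex, name no vehicle for the ligands, and do not state that each replicate is its own animal. The p-values therefore measure only the spread between libraries of a group, which may be technical. That spread is shared over the 8 groups of all 24 libraries in 1 model.

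CAR, the constitutive androstane receptor encoded by Nr1i3, is a nuclear receptor of hepatocytes. Once activated it enters the nucleus, pairs with the retinoid X receptor and raises transcription of genes for oxidation, conjugation and transport of foreign compounds. TCPOBOP is a potent agonist of mouse CAR and is known to drive hepatocytes of adult mice into division, whereas CITCO is an agonist of the human receptor. Newborn liver still makes blood cells, its hepatocytes still divide, and many genes of adult metabolism are not yet at their adult level.

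Over the 24 libraries the FPKM totals ranged from 451546 to 502499. Absolute depth is unknown without read totals, which were not used here, but the widths of the deposited FPKM intervals gave relative depths of 0.866 to 1.104. Markers of hepatocytes were abundant at both ages under TCPOBOP, with a summed level of 57799 to 62136 FPKM at day 5 and 24963 to 27317 FPKM at day 60 over 6 markers. Pancreatic acinar transcripts summed to 32.1 to 549 FPKM in the newborn TCPOBOP libraries, highest in replicate 2, and to 4.99 to 7.35 FPKM in the adult ones. The number that closes the read file names was the same in all newborn TCPOBOP libraries and was held by none of the adult ones, so it cannot be told apart from age in this comparison, and no fit within it is possible.

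Age separated the ligand-treated livers at most expressed genes. Of 12282 genes tested with limma, 7874 (64.1%) were called at an adjusted p under 0.05, of which 2926 (23.8%) were higher and 4948 (40.3%) lower at day 60. By at least 2-fold, 471 genes (3.83%) were higher and 991 (8.07%) lower. The 3 adult and 3 newborn libraries did not overlap at 8913 genes (72.6%). The median 95% interval reached 0.18 log2 to either side of the estimate. Rescaling the libraries by median of ratios moved the median difference from -0.09 to 0.07 and turned the balance to 4673 genes higher (38.0%) and 3601 lower (29.3%), so the share called higher among calls was 56.5% against 37.2% as deposited. Small differences, below the shift of 0.173 log2, therefore take their direction from the scaling.

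Drug-processing genes stood mainly on the adult side. Of 243 tested members of the drug-processing lists, 147 were higher and 56 lower at day 60 and 40 were not called, with a median difference of 0.54 against -0.09 over all tested genes. Their summed level was 45680.0 to 47610.0 FPKM in the newborn and 89770.0 to 96567 FPKM in the adult libraries.

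**Figure D1:**
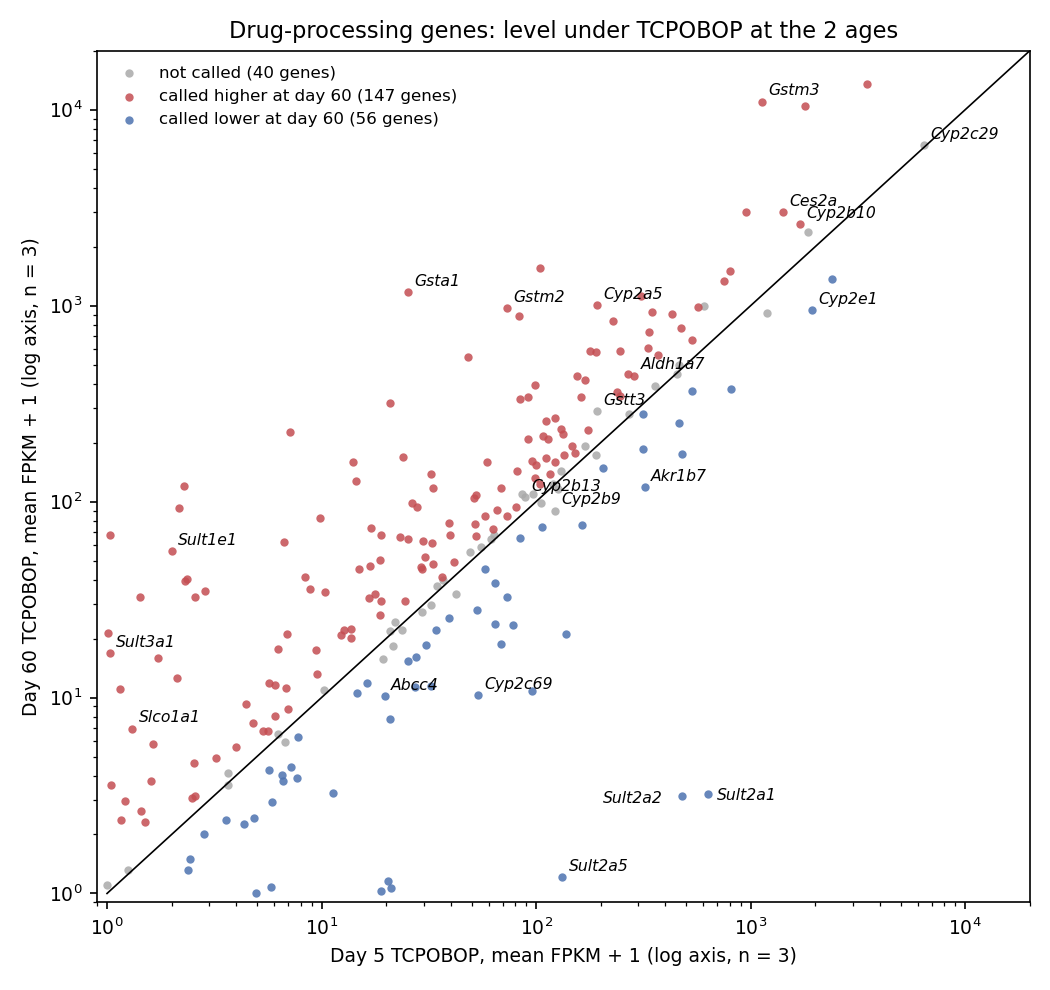
Mean level of 243 drug-processing genes under TCPOBOP at day 5 (horizontal) and day 60 (vertical), in FPKM + 1 on log axes, n = 3 libraries per age, with the line of equal level. Red points were called higher at day 60 (147 genes), blue lower (56) and grey not called (40). Cyp2c29 lies on the line at the top right, Gstm3 and Gsta1 far above it, and Sult2a1, Sult2a2 and Sult2a5 far below it.

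The receptor genes were close at the 2 ages. Nr1i3 (chr1:171213970-171218845, mm10) was at 13.5, 17.9 and 15.6 FPKM in the newborn and 22.1, 23.9 and 19.3 FPKM in the adult TCPOBOP libraries. The groups did not overlap, and the log2 difference of 0.46 ± 0.18 (SE, n = 3 per group) passed the test narrowly (limma adjusted p = 0.034). The call was lost in 4 of 6 fits that left out 1 of these libraries (newborn replicate 1 or 3, adult replicate 1 or 2), with estimates of 0.36 to 0.46. Nr1i2, which encodes the related xenobiotic receptor PXR, was higher in adults, going from 23.9 ± 0.384 to 31.7 ± 0.2701 FPKM (SD, n = 3 per group; 0.40 ± 0.11 log2, limma adjusted p = 0.00375).

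Cyp2b10, a P450 gene that commonly serves to read out CAR activity (chr7:25897658-25926624), reached 1636, 1788 and 1658 FPKM in newborn and 2760.0, 2625 and 2404 FPKM in adult libraries. All adult values lay above all newborn values, a ratio of means of 1.53, yet the call was marginal (log2 difference 0.61 ± 0.26, limma adjusted p = 0.0429). It was lost with a pseudocount of 0.1, without the filter on low values and in each fit that left out 1 of the 6 libraries, with estimates from 0.57 to 0.67. Under corn oil the gene was at 4.26 and 12.9 FPKM, so both ages stood far above their vehicle level. The SE is taken from the spread within all 8 groups, including corn oil libraries at 3.30 to 5.57 and 9.31 to 17.4 FPKM. The TCPOBOP libraries themselves had an SD of 82.4 FPKM at day 5 and 180 FPKM at day 60.

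Cyp2c29, another P450 gene with a strong CAR response (chr19:39287085-39330713), was the highest-expressed of the most induced genes in newborn liver. It was at 6382, 6397 and 6531 FPKM at day 5 and at 6914, 6612 and 6264 FPKM at day 60, and the groups overlapped. The difference was 0.03 ± 0.39 log2 with a 95% interval of -0.78 to 0.85 (limma adjusted p = 0.945). This interval also holds the spread of the other groups, such as 10.4 to 40.1 FPKM in the newborn corn oil libraries. Under corn oil the same gene differed widely with age, from 29.9 to 946 FPKM (5.14 ± 0.39 log2), and the change between these age differences was itself called (-5.11 ± 0.55, limma adjusted p = 1.68e-06). For Cyp2b13 no difference was called under TCPOBOP, at 87.7 ± 5.53 and 104 ± 1.498 FPKM (0.25 ± 0.19 log2, 95% interval -0.15 to 0.64, limma adjusted p = 0.269), after an opposite age difference under corn oil (15.7 against 1.003 FPKM, change 3.39 ± 0.27).

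Other strongly induced genes did not meet at one level. The carboxylesterase gene Ces2a stood at 1315, 1386 and 1548 FPKM in newborns and 3161, 3132 and 2699 FPKM in adults (1.08 ± 0.12 log2, limma adjusted p = 1.5e-07), a ratio of means of 2.12. Cyp2c55 (473 to 771 FPKM, 0.70 ± 0.16 log2) and the aldehyde dehydrogenase gene Aldh1a7 (286 to 439 FPKM, 0.62 ± 0.17 log2) were moderately higher in adults. The glutathione S-transferase gene Gstt3 was at 192 and 288 FPKM and missed the threshold (0.59 ± 0.26 log2, limma adjusted p = 0.0595), although after rescaling it was called at 0.79. Akr1b7, an aldo-keto reductase gene, ran the other way, with 301, 321 and 340.3 FPKM in newborns and 136, 115 and 101 FPKM in adults (-1.45 ± 0.21 log2, limma adjusted p = 4.64e-06), and under corn oil it was at 54.1 and 0.316 FPKM. Close relatives within the Cyp2b, Cyp2c, Gstm, Gsta, Sult2a, Ugt1a and Mup families share sequence, so the division of reads between single members is uncertain.

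Of 47 tested CAR targets, 31 were higher and 4 lower at day 60 under TCPOBOP, with a median of 0.84. Under corn oil 32 were higher and 9 lower, with a median of 1.38, where 25.2% of all tested genes were higher and 44.9% lower. The 4 lower genes were Sult2a1, Akr1b7, the efflux pump gene Abcc4 (18.7 ± 1.44 to 9.17 ± 0.465 FPKM, -0.95 ± 0.08 log2) and the quinone reductase gene Nqo1 (-0.47 ± 0.16 log2). Among the 12 not called were Cyp2c50, Cyp2c54, the bilirubin glucuronidation gene Ugt1a1 (359 and 387 FPKM), and Por, which passes electrons to P450 enzymes (459 and 389 FPKM, -0.24 ± 0.15 log2, limma adjusted p = 0.18).

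**Figure D2:**
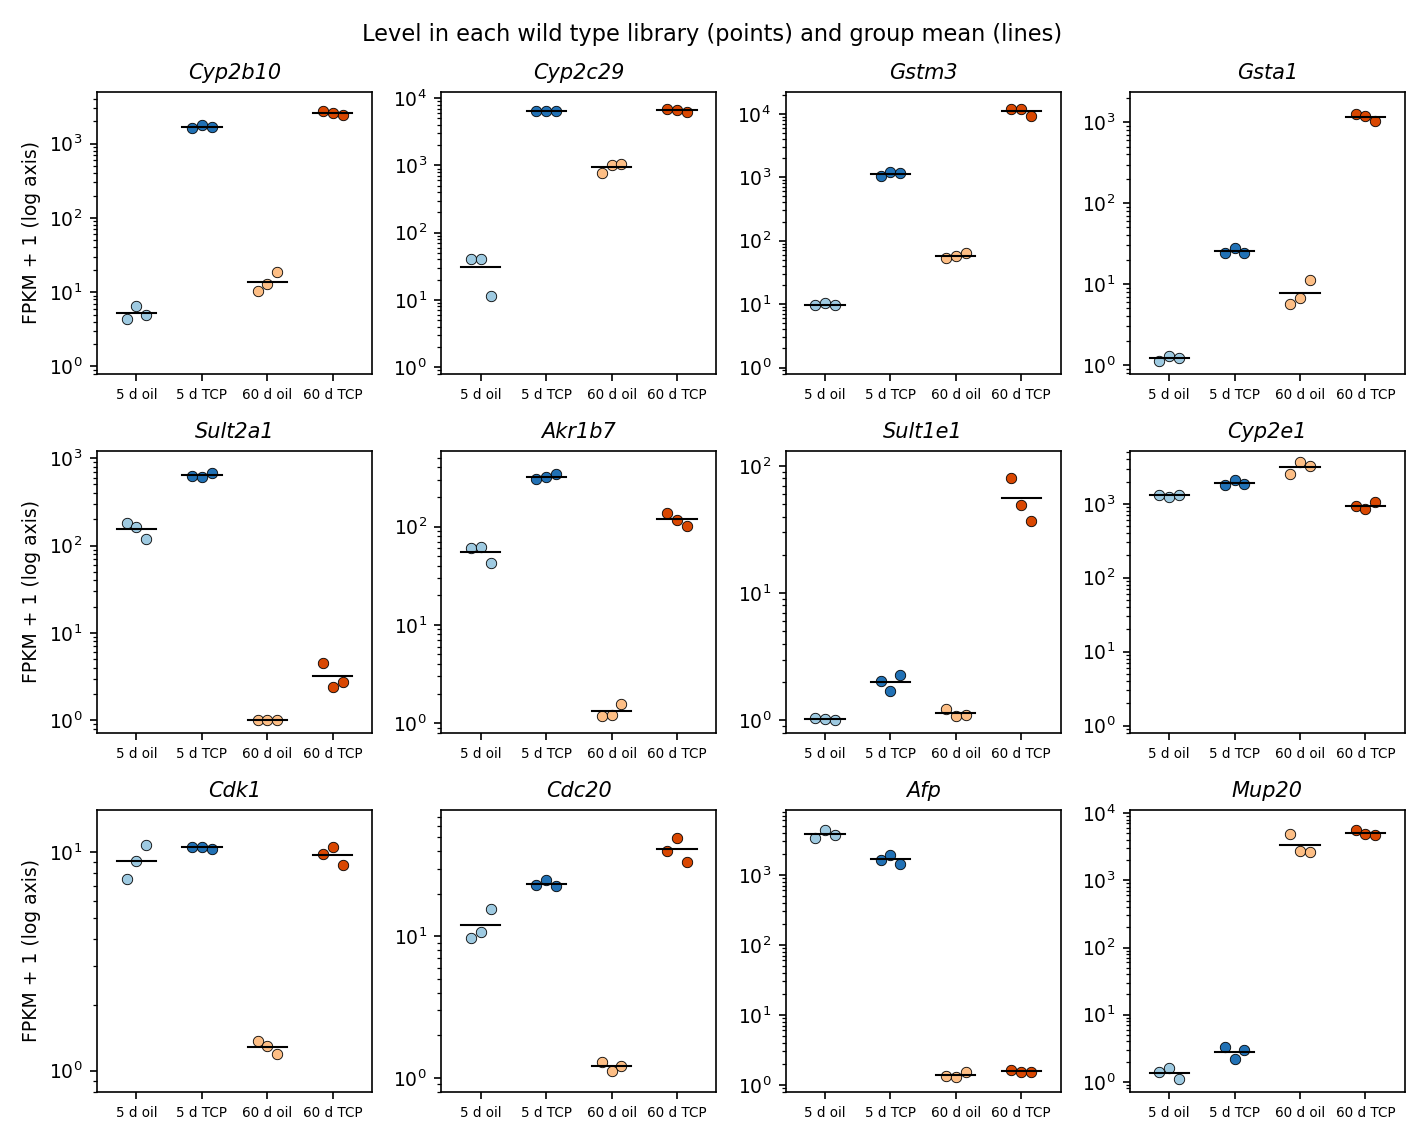
FPKM + 1 (log axis) of 12 genes in each wild type library, by age in days (d) and treatment (oil, corn oil; TCP, TCPOBOP), with points for the 3 libraries of a group and a line at the group mean. Under TCPOBOP the ages meet for Cyp2c29 and Cdk1, while Gsta1, Sult1e1 and Mup20 are higher and Sult2a1, Akr1b7, Cyp2e1 and Afp lower in the adult libraries.

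Among P450 genes of families 1 to 3, the first step of drug oxidation, 29 of 47 were higher and 9 lower in adults under TCPOBOP (median 0.62), and their summed level was 21331 to 21840.0 FPKM in newborn against 35034 to 38443 FPKM in adult libraries. Cyp3a11, a major P450 gene of adult mouse liver, was at 3536, 3299.7 and 3650.3 FPKM and 14430.0, 13999 and 12310.0 FPKM, with no overlap (1.96 ± 0.11 log2, limma adjusted p = 4.67e-12). Cyp2a5, a coumarin hydroxylase gene, differed by 2.398 ± 0.22 log2 (191 to 1005 FPKM) and Cyp2f2 by 3.49 ± 0.17 log2 (47.2 to 544 FPKM). Cyp1a1 stayed low at both ages but was higher in adults (0.585, 0.6097 and 0.629 against 2.71, 2.79 and 2.73 FPKM, 1.22 ± 0.06 log2).

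The 9 lower P450 genes were Cyp2e1, Cyp2a22, Cyp2d26, Cyp2g1 and the Cyp2c members Cyp2c40, Cyp2c44, Cyp2c67, Cyp2c68 and Cyp2c69. Cyp2e1, which oxidizes ethanol and acetaminophen, was at 1800.4, 2129 and 1857 FPKM in newborns and 948, 839 and 1047 FPKM in adults, so that ligand-treated adults held 0.4898 times the newborn level (-1.03 ± 0.11 log2, limma adjusted p = 5.31e-08). Under corn oil its order was the reverse, 1299.9 ± 42.97 FPKM at day 5 and 3146 ± 589 FPKM at day 60 (1.26 ± 0.11 log2), and the change of -2.29 ± 0.15 log2 was called (limma adjusted p = 7.13e-10).

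Glutathione S-transferase genes, which join glutathione to reactive compounds, held a larger adult excess in summed level than the P450, glucuronidation and sulfotransferase genes. Of 23 tested members 15 were higher and 3 lower (median 1.12), and the summed level was 5952 to 6565 FPKM in newborns and 29004 to 33081 FPKM in adults, a ratio of means of 5.03. Gstm3 (chr3:107963696-107969174) was at 1033, 1187 and 1158 FPKM in newborns and 11764, 11891 and 9343 FPKM in adults (3.28 ± 0.14 log2, limma adjusted p = 4.13e-14). Gsta1 (chr9:78230669-78242683) was at 23.2, 26.6 and 23.4 FPKM and 1276, 1194 and 1048 FPKM, a ratio of means of 48.1 (5.53 ± 0.18 log2, limma adjusted p = 1.52e-15). Under corn oil Gsta1 was at 0.207 and 6.86 FPKM, a smaller age difference on this scale (2.65 ± 0.18 log2), and the change was called at 2.88 ± 0.26. The newborn corn oil value lay below the pseudocount of 1, which understates the corn oil difference and so overstates the change. Gstm2 showed the same order, 71.96 to 966 FPKM (3.74 ± 0.13 log2, change against corn oil 1.66 ± 0.18). Gstm1, at 1784 and 10439 FPKM, differed with age by about as much without ligand (2.55 ± 0.11 against 2.497 ± 0.11 log2, change 0.05 ± 0.15, limma adjusted p = 0.853).

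Glucuronidation genes were higher in adults in 18 of 20 cases with 0 lower (median 0.97). Ugdh, which makes the UDP-glucuronic acid that these enzymes consume, was at 13.4, 12.2 and 13.6 FPKM in newborns and 167, 160.5 and 145 FPKM in adults (3.496 ± 0.09 log2, limma adjusted p = 9.81e-18), and Ugt2b5 was at 97.6 and 393 FPKM (2.001 ± 0.09 log2).

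Sulfotransferase genes, which sulfate steroids, bile acids and phenols, were split in direction. Of 17 tested members 7 were higher and 8 lower in adults, beside 23.8% and 40.3% of all tested genes. The median of these members, -0.15, became 0.05 after rescaling. The summed level was 1714 to 1848 FPKM in newborns and 598 to 690.2 FPKM in adults. Sult2a1, a steroid and bile acid sulfotransferase gene (chr7:13796246-13837410), was at 618, 612 and 670.2 FPKM in newborn and 3.56, 1.39 and 1.72 FPKM in adult TCPOBOP libraries (-7.68 ± 0.18 log2, limma adjusted p = 6.44e-18). Corn oil livers differed in the same order, at 154 and 0.0023 FPKM (-7.25 ± 0.18 log2), and the change with ligand was not called (-0.43 ± 0.25, limma adjusted p = 0.25). The corn oil adult value is near 0, where the pseudocount of 1 limits the size of the difference. The test of the change therefore cannot tell whether the fold difference with age was the same with and without ligand. Sult2a2 (479 to 2.13 FPKM) and Sult2a5 (132 to 0.213 FPKM) had the same order. Within the 8 Sult2a genes, grouped after their values were seen, 6 were lower and 2 higher in adults, the higher ones being Sult2a7 (0.0416 to 2.56 FPKM) and Sult2a8 (22.3 to 65.3 FPKM).

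A pair of other sulfotransferase genes were nearly silent except in ligand-treated adults. The estrogen sulfotransferase gene Sult1e1 was at 1.03, 0.713 and 1.26 FPKM in newborns and 79.9, 48.7 and 35.9 FPKM in adults under TCPOBOP (4.73 ± 0.22 log2, limma adjusted p = 3.52e-13), against 0.0226 and 0.138 FPKM under corn oil. Sult3a1 was at 0.0242, 0 and 0.0743 FPKM and 11.5, 14.6 and 21.5 FPKM (3.99 ± 0.13 log2, change against corn oil 3.88 ± 0.18). The adult libraries spread widely for both, from 35.9 to 79.9 FPKM for Sult1e1 and from 11.5 to 21.5 FPKM for Sult3a1, without reaching the newborn values.

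Uptake transporter genes were higher in adults in 14 of 19 cases and lower in 2, with Slco2b1 at 0.414, 0.361 and 0.499 FPKM in newborns and 30.1, 31.2 and 32.98 FPKM in adults (4.51 ± 0.13 log2, limma adjusted p = 1.39e-16). Efflux transporter genes were higher in 4 of 18 and lower in 8, shares near those over all tested genes (23.8% and 40.3%), with the bilirubin conjugate pump gene Abcc2 higher (130.1 ± 6.44 to 234 ± 16.7 FPKM, 0.84 ± 0.06 log2) and Abcc4 lower. In other phase I enzymes 38 of 64 were higher and 16 lower. The carboxylesterase genes Ces3b (1.17 to 91.3 FPKM) and Ces1f (1.29 to 119.6 FPKM) were nearly absent from newborn liver under TCPOBOP (5.41 ± 0.14 and 5.71 ± 0.15 log2). Their corn oil means were higher in value at both ages, 1.68 and 317 FPKM for Ces3b and 4.23 and 181 FPKM for Ces1f.

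Across genes, the age difference under TCPOBOP followed that under corn oil, which was measured in other libraries. The corn oil comparison called 8617 genes (70.2%), and 6467 genes were called with the same sign in both, 82.1% of the TCPOBOP calls and 75.0% of the corn oil calls. Pearson's r across the 12282 genes was 0.862, given as a description since genes are not independent replicates. The SD of the differences was 0.866 log2 under TCPOBOP and 0.986 log2 under corn oil. The test of the change found 2879 genes (23.4%), 1680 (13.7%) relatively higher and 1199 (9.76%) relatively lower in ligand-treated adults.

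**Figure D3:**
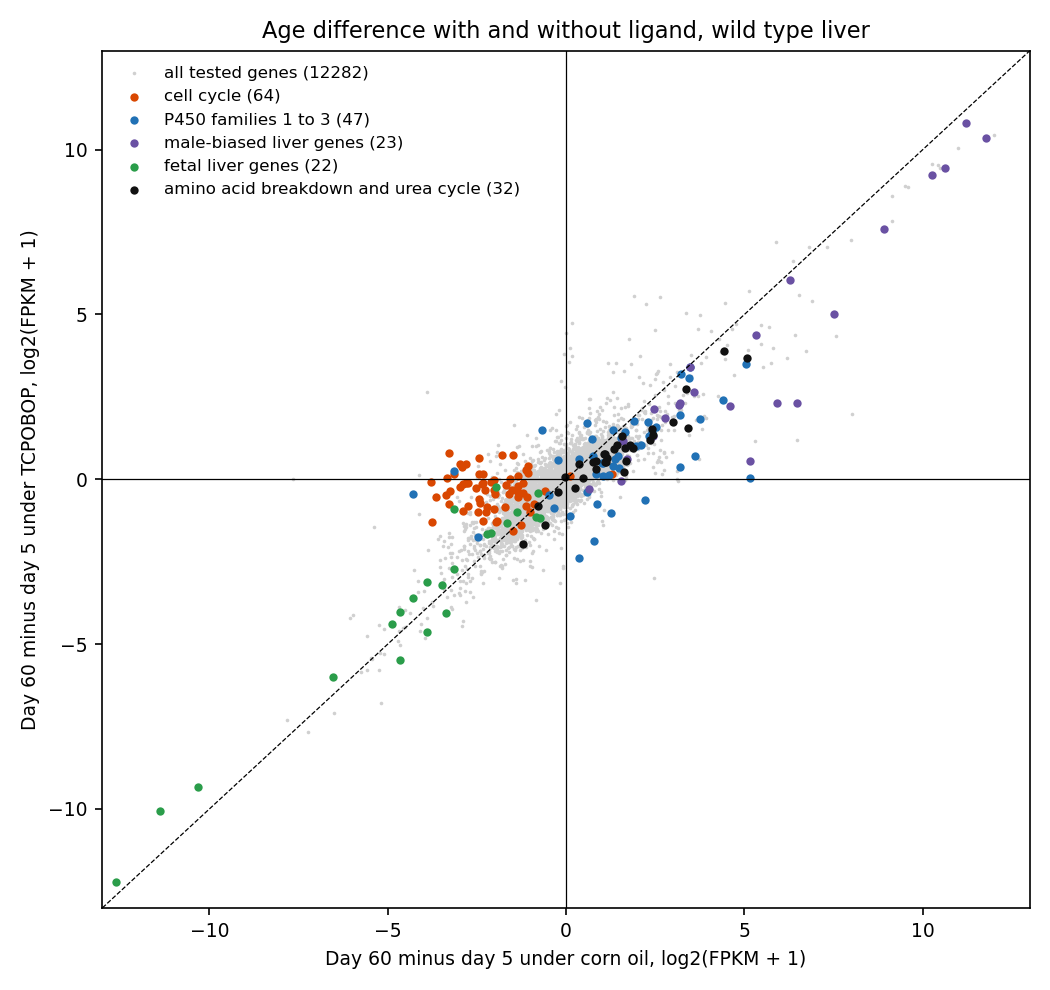
Day 60 minus day 5 difference in log2(FPKM + 1) under corn oil (horizontal) and TCPOBOP (vertical) for 12282 genes in grey and 5 gene lists in colour, with the diagonal of equal difference dashed. Fetal genes lie near the diagonal, whereas cell cycle genes spread to -3.79 under corn oil but lie between -1.56 and 0.79 under TCPOBOP, and many P450, male-biased and amino acid genes lie below the diagonal at the right.

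For 123 genes (1%) a corn oil age difference of at least 2-fold was closed under TCPOBOP, meaning that the 95% interval of the TCPOBOP difference lay within 0.5 log2 of 0 and the change was called. Of these 18 were among the 64 cell cycle genes. The aldehyde oxidase gene Aox3 closed from the other side, with 26.7 and 178 FPKM under corn oil but 44.99, 49.4 and 50.7 FPKM and 54.1, 54.5 and 55.2 FPKM under TCPOBOP (0.17 ± 0.11 log2). The reverse, an age difference of at least 2-fold under TCPOBOP whose corn oil interval lay within 0.5 log2 of 0, was found for 40 genes (0.326%). Acaca, the acetyl-CoA carboxylase gene of fatty acid synthesis, was one, at 9.24 and 9.33 FPKM under corn oil but 5.81, 6.87 and 5.88 FPKM and 21.9, 21.9 and 19.8 FPKM under TCPOBOP (1.63 ± 0.12 log2, limma adjusted p = 1.1e-10).

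The same class held genes that only ligand-treated livers expressed above 1 FPKM among the wild type group means. Meig1, a spermatogenesis gene, was at 0.586, 0.556 and 0.387 FPKM in newborns and 19.8, 16.9 and 20.3 FPKM in adults under TCPOBOP, and the keratin gene Krt4 was at 2.36, 2.12 and 2.86 FPKM and 24.04, 22.9 and 21.5 FPKM. In the newborn direction Ggt1, a gamma-glutamyl transferase gene, was at 13.5, 14.8 and 15.8 FPKM in newborns and 0.9599, 0.913 and 0.452 FPKM in adults under TCPOBOP (-3.16 ± 0.13 log2), while both corn oil means were at or below 0.150 FPKM. The tight junction gene Cldn10 was at 6.26, 3.81 and 7.52 FPKM in newborns and at most 0.0611 FPKM in adults, and Sertm1 at 5.76 and 0.0953 FPKM. Outside this class Pnliprp1, a lipase gene of the pancreas, was at 1356, 1563 and 1689.8 FPKM in newborn and 86.8, 65.99 and 61.8 FPKM in adult ligand-treated libraries (-4.42 ± 0.35 log2), against 41.3 and 0.0335 FPKM under corn oil. The part of pancreatic transcripts in these values was not tested.

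A further 236 genes (1.92%) crossed, being called in opposite directions with and without ligand, 162 relatively higher and 74 relatively lower in ligand-treated adults. Besides Cyp2e1, the Cyp2c members Cyp2c40 (-1.88 ± 0.10 under TCPOBOP against 0.77 ± 0.10 log2 under corn oil), Cyp2c67 (-0.64 ± 0.12 against 2.21 ± 0.12) and Cyp2c69 (-2.39 ± 0.13 against 0.36 ± 0.13) crossed downwards. Fam84a crossed upwards, at 6.58 and 22.6 FPKM under TCPOBOP and 2.92 and 0.4299 FPKM under corn oil.

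Of the 49 gene lists, cell cycle genes had the highest share with a change in age difference between treatments. The change was called for 56 of 64 relatively higher and 1 relatively lower in ligand-treated adults. Under corn oil 62 were lower and 1 higher in adults (median -2.07). Under TCPOBOP 31 were lower, 8 higher and 25 not called (median -0.31), and after rescaling 24 were lower and 14 higher (median -0.14). The count of 8 higher fell to 5 with a pseudocount of 0.1 and without adult TCPOBOP replicate 1 or replicate 2. The summed level was 828 to 898 FPKM in newborn and 581 to 756 FPKM in adult TCPOBOP libraries, and 138 to 150.4 FPKM in adult corn oil libraries.

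The promoters of 3 mitosis genes that closed or crossed are shown because many promoters of such genes are known to pair a CCAAT box with the cell cycle homology element TTTGAA. Each run is the 250 bases before the RefSeq transcription start in GRCm38.p6 (mm10), written 5′ to 3′ along the gene's strand, and capitals mark CCAAT and TTTGAA, or ATTGG and TTCAAA where they lie on the other strand. Cdc20 (chr4:118437344-118437593, minus strand), which activates the anaphase promoting complex, Cdk1 (chr10:69352913-69353162, minus strand), the kinase that starts mitosis, and Ube2c (chr2:164769679-164769928, plus strand), a ubiquitin-conjugating enzyme of the same complex, read as follows.
Cdc20: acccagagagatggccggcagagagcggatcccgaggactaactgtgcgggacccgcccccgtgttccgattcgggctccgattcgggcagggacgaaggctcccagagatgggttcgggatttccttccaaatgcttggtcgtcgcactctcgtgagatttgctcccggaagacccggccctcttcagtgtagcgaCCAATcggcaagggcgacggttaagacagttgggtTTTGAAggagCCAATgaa
Cdk1: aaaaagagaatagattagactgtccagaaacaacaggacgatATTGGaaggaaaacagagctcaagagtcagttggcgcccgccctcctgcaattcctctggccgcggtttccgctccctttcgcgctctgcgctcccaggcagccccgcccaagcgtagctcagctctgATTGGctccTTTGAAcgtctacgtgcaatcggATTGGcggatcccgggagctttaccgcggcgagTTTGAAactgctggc
Ube2c: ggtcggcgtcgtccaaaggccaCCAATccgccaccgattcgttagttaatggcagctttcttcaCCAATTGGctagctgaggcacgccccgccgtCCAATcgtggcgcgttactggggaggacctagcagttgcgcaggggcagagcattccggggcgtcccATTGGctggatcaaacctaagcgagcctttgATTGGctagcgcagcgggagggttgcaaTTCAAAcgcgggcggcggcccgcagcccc

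In Ube2c a CCAAT and an ATTGG overlap within CCAATTGG. Over windows of 300 bases, from 250 before to 50 after the start, CCAAT on either strand was in 37.9% of all 27025 promoters and TTTGAA on either strand in 18.1%, and both were in 7.12%. Among tested genes with an entry (9358), both were in 5.03%. Of 64 cell cycle genes 52 had an entry, and 26 of these (50%) held both. Both were in 15 of the 20 that closed or crossed and in 11 of the 32 that did neither. A match describes these letters only.

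In ligand-treated adults 2 of these 3 genes overlapped the newborn libraries and 1 lay above them. Cdk1 was at 9.58, 9.62 and 9.402 FPKM in newborn and 8.79, 9.56 and 7.72 FPKM in adult TCPOBOP libraries, and the groups overlapped (-0.13 ± 0.10 log2, 95% interval -0.32 to 0.07, limma adjusted p = 0.258). Under corn oil it was at 8.14 and 0.286 FPKM (-2.82 ± 0.10 log2). Ube2c was at 21.7, 20.5 and 18.5 FPKM and 20.00, 21.5 and 15.8 FPKM under TCPOBOP (-0.09 ± 0.15 log2) and at 17.3 and 0.295 FPKM under corn oil (-3.79 ± 0.15 log2). Cdc20 passed the newborn level, with 21.9, 24.2 and 21.5 FPKM at day 5 and 39.1, 48.7 and 32.7 FPKM at day 60 under TCPOBOP (0.79 ± 0.17 log2, limma adjusted p = 0.00044), against 10.99 and 0.207 FPKM under corn oil.

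**Figure D4:**
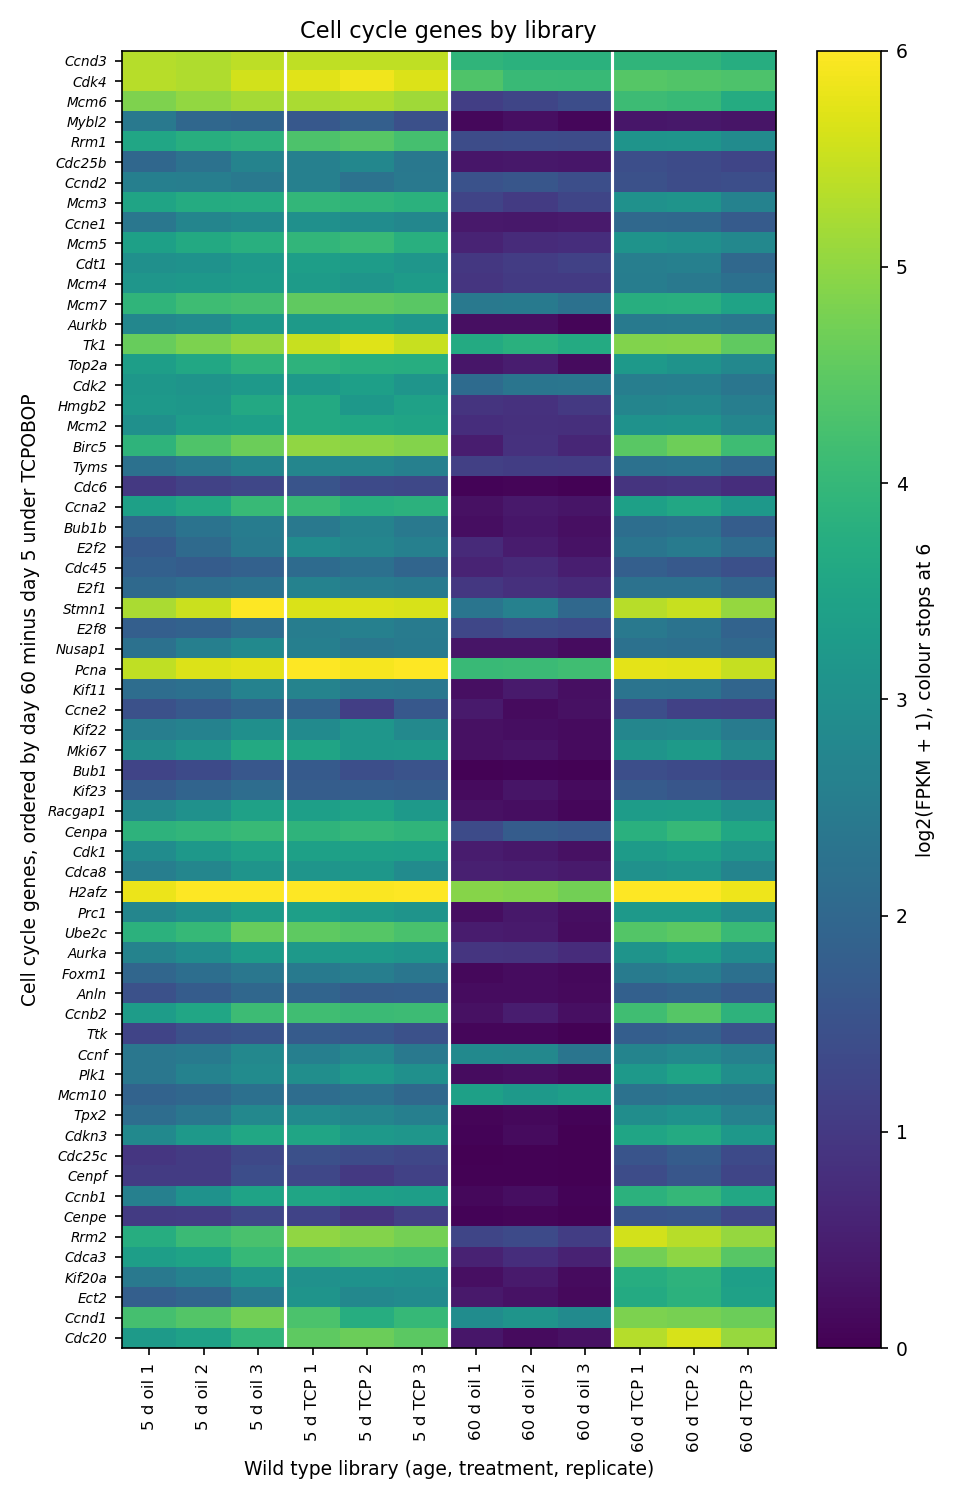
Level of 64 cell cycle genes in the 12 wild type libraries as log2(FPKM + 1), with genes ordered by the TCPOBOP age difference and the colour scale ending at 6. The 3 adult corn oil columns are dark for most genes, whereas the adult TCPOBOP columns resemble the newborn ones toward the lower rows and are darker than them in the upper rows.

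Within the list, genes of DNA replication and of mitosis were separated after their values were seen. Of 15 replication genes 13 were lower and 1 higher in adults under TCPOBOP (median -0.81). The helicase gene Mcm6 was at 36.9, 38.2 and 34.5 FPKM in newborns and 16.2, 15.5 and 11.9 FPKM in adults (-1.28 ± 0.18 log2, limma adjusted p = 3.05e-06), with 1.404 FPKM in corn oil adults. The higher gene was Rrm2, a ribonucleotide reductase subunit (0.46 ± 0.16 log2, limma adjusted p = 0.016), a call lost in 2 of 6 fits without 1 of the libraries (0.39 and 0.33). Of 28 mitosis genes, 6 were higher and 5 lower (median -0.08), which became 11 higher and 2 lower after rescaling (median 0.10), so the list as a whole has no direction free of the scaling. Without adult TCPOBOP replicate 2, 3 were higher, and without replicate 3, 2 were lower. All 28 were lower in adults under corn oil, and 15 of them closed and 6 crossed. The cyclin genes split as well: Ccnd3 was lower in adults (41.98 to 13.6 FPKM, -1.56 ± 0.06 log2) and Ccnd1 higher (18.6, 12.3 and 15.1 to 27.3, 26.3 and 24.1 FPKM, 0.73 ± 0.15 log2).

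The adult TCPOBOP libraries were not alike in mitosis genes, with a summed level of 215 to 302 FPKM against 231 to 249.7 FPKM in newborns. For Cdc20, Ube2c, Cdk1 and Ccnb1 the order was replicate 2 highest and replicate 3 lowest. Blood-forming cells also divide in newborn liver, and in tissue RNA fewer cells of a type and less RNA per cell cannot be told apart. Erythroid markers were lower in adults in 25 of 28 cases and higher in 1, with a summed level of 6879 to 8483 FPKM in newborn and 953 to 1553 FPKM in adult TCPOBOP libraries. The part of other cell types in the cell cycle levels was not tested.

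Genes of the Gadd45 and p53 list, which respond to stress and DNA damage, were higher in adults in 7 of 17 cases and lower in 4 (median 0.06, against -0.55 under corn oil). Over all tested genes 23.8% were higher and 40.3% lower. The change against corn oil was called relatively higher for 9 and lower for 0, beside 13.7% and 9.76% of all tested genes. Ccng1 (5.23 to 11.4 FPKM, 1.003 ± 0.12 log2) and Mdm2, the p53 inhibitor (5.86 to 10.5 FPKM, 0.75 ± 0.09 log2), were higher in adults under TCPOBOP. Gadd45b crossed, at 10.04, 10.7 and 12.3 FPKM in newborns and 28.3, 32.6 and 26.9 FPKM in adults under TCPOBOP (1.33 ± 0.24 log2) against 2.38 and 0.585 FPKM under corn oil. Gadd45a was at 25.01 ± 1.74 and 25.02 ± 1.71 FPKM under TCPOBOP.

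The fetal program stayed a newborn feature under ligand. Of 22 tested fetal liver genes 21 were lower in adults and 0 higher (median -3.15, against -3.41 under corn oil), and the summed level was 8187 to 9082 FPKM in newborns and 68.9 to 73.3 FPKM in adults. Under corn oil the sums were 11798 to 12841 FPKM and 22.5 to 27.1 FPKM. The change in age difference was called relatively higher for 10 and lower for 1, beside 13.7% and 9.76% of all tested genes. The imprinted non-coding RNA gene H19 held the largest difference of all genes named by rule, at 5945, 5056 and 6316 FPKM in newborns and 0.331, 0.208 and 0.0907 FPKM in adults (-12.22 ± 0.13 log2, limma adjusted p = 6.1e-24). Afp, the fetal counterpart of albumin, was at 1618, 1943 and 1429 FPKM and 0.626, 0.527 and 0.525 FPKM (-10.05 ± 0.14 log2), and the fetal growth factor gene Igf2 at 696 and 0.0788 FPKM (-9.33 ± 0.09 log2). Afp was lower in newborns with TCPOBOP than with corn oil (1664 against 3778 FPKM), and its age difference changed by 1.35 ± 0.20 log2 (limma adjusted p = 3.92e-05).

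At the other end stood the major urinary proteins, pheromone carriers of adult males. All 19 tested Mup genes were higher in adults (median 8.88), with a summed level of 2.44 to 6.65 FPKM in newborns and 13339 to 19038 FPKM in adults. Mup20 was at 2.26, 1.22 and 1.97 FPKM and 5571, 4804 and 4642 FPKM (10.81 ± 0.55 log2, limma adjusted p = 1.46e-11). Male-biased liver genes as a whole were higher in adults in 20 of 23 cases and lower in 0 under TCPOBOP (median 2.32), against 23 of 23 under corn oil (median 4.59), and the change was called relatively lower for 12 and higher for 0. Hsd3b5, a male steroid dehydrogenase gene, was at 0.0814, 0.198 and 0.0817 FPKM in newborns and 0.2400, 0.259 and 1.78 FPKM in adults under TCPOBOP (0.54 ± 0.32 log2, limma adjusted p = 0.144), where corn oil adults held 116 ± 44.2 FPKM. Of 24 female-biased genes 7 were higher and 13 lower under TCPOBOP, beside 23.8% and 40.3% of all tested genes. Their change against corn oil was called relatively higher for 12 and lower for 3 (median 0.70), beside 13.7% and 9.76% of all tested genes. The peroxisomal oxidase gene Hao2, one of the female-biased genes, was at 124, 116 and 117 FPKM in newborns and 5.36, 5.22 and 6.08 FPKM in adults (-4.19 ± 0.08 log2).

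Genes of nitrogen handling and of lipid synthesis were also mostly higher in adults under ligand. Genes of amino acid breakdown and the urea cycle were higher in adults in 24 of 32 cases and lower in 5 (median 0.71, against 1.25 under corn oil), and the change was called relatively lower for 22 and higher for 0. The proline dehydrogenase gene Prodh was at 1.42, 1.31 and 1.07 FPKM and 26.7, 28.2 and 28.4 FPKM under TCPOBOP (3.67 ± 0.10 log2), with 54.3 FPKM in corn oil adults (change -1.402 ± 0.14, limma adjusted p = 1.44e-07). Among 27 lipogenic genes 18 were higher and 4 lower (median 0.35), and here the change was relatively higher for 11 and lower for 0. Elovl6, which lengthens fatty acids, was at 3.38, 2.09 and 3.26 FPKM and 69.6, 74.3 and 74.8 FPKM under TCPOBOP (4.26 ± 0.20 log2) and at 2.63 and 11.2 FPKM under corn oil (change 2.502 ± 0.28, limma adjusted p = 1.36e-06). The desaturase gene Scd1 was at 2.28, 2.25 and 2.19 FPKM and 312, 387 and 661 FPKM (7.06 ± 0.21 log2), with a similar age difference under corn oil (6.798 ± 0.21).

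Among 26 cholesterol synthesis genes 16 were higher in adults and 2 lower (median 0.46), though in 10 without adult TCPOBOP replicate 1. Of 40 fatty acid oxidation genes 7 were higher and 20 lower (median -0.15), beside 23.8% and 40.3% of all tested genes. These counts became 12 and 11 after rescaling, beside 38.0% and 29.3% of all tested genes. The count lower was 13 without newborn replicate 2 or adult replicate 1. Among NRF2 targets 10 of 18 were higher and 6 lower, with Srxn1, a peroxiredoxin repair gene, higher (23.6, 22.03 and 26.8 against 64.4, 61.5 and 50.01 FPKM, 1.24 ± 0.09 log2) and the heme oxygenase gene Hmox1 lower (71.7 to 14.3 FPKM, -2.25 ± 0.12 log2).

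**Figure D5:**
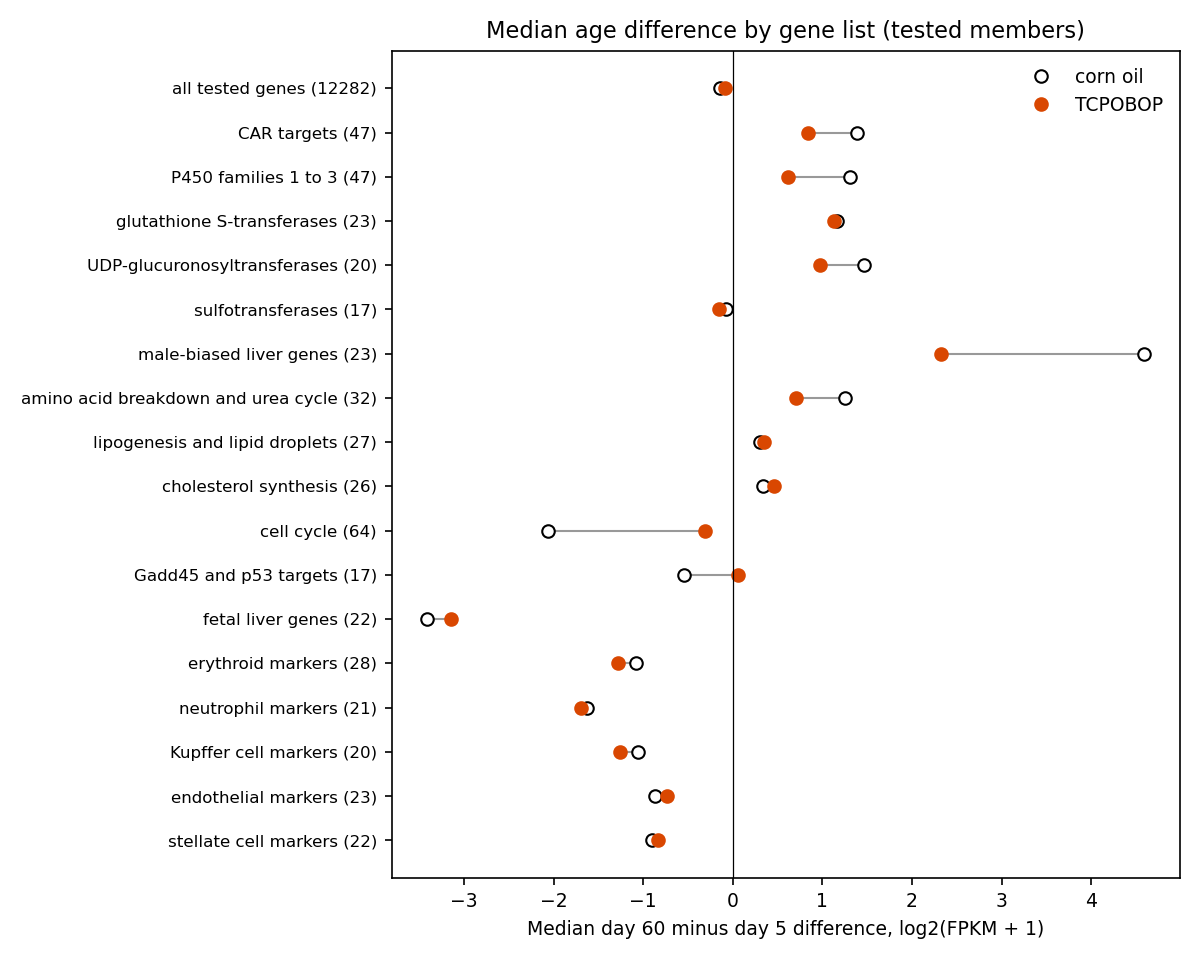
Median day 60 minus day 5 difference in log2(FPKM + 1) over the tested members of 17 gene lists and over all tested genes (number in brackets), under corn oil (open) and TCPOBOP (filled). The 2 points lie farthest apart for male-biased genes (4.59 and 2.32) and cell cycle genes (-2.07 and -0.31), and close together for glutathione S-transferases, sulfotransferases and markers of other cell types.

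Markers of other cell types moved with age beside all these groups. Over all tested genes 23.8% were higher and 40.3% lower in adults under TCPOBOP. Lower in adult than in newborn TCPOBOP libraries were 20 of 21 neutrophil markers (626 to 696 FPKM summed in newborns, 52.6 to 61.9 in adults), 18 of 20 Kupffer cell markers (1062 to 1278, then 422 to 447), 17 of 17 lymphocyte markers (64.3 to 72.2, then 6.99 to 7.85), 22 of 23 endothelial markers (356 to 362, then 209 to 216) and 17 of 22 stellate cell markers (219 to 255, then 143 to 149), with 0 higher in each. Cholangiocyte markers were lower in 9 and higher in 3 of 17 cases (509 to 527, then 450.3 to 549 FPKM). Pancreatic acinar markers were lower in 5 of 25 and higher in 0, but lower in 22 and higher in 1 without the 3 libraries with the most of these transcripts. Intestinal markers summed to 856 to 1421 FPKM in newborns and 479 to 554 FPKM in adults, were lower in 5 of 17 tested cases and higher in 0, and 10 listed members were at 0 in all 6 libraries. Most of both sums was Apoa4 alone, at 759, 739 and 1275 FPKM in newborns and 519, 443 and 471 FPKM in adults. Under corn oil Apoa4 was at 93.8 and 44.6 FPKM, so these sums do not measure intestinal content. Csf1r, the receptor that defines macrophages, was at 72.5 and 16.7 FPKM, and the neutrophil granule gene Ngp at 53.3, 60.8 and 53.8 FPKM in newborns and at most 0.0720 FPKM in adults. Collagen and matrix genes were lower in 20 of 25 cases. Alb, the albumin gene, was itself lower in adults under TCPOBOP (33101 ± 2492 to 11553 ± 1281 FPKM, -1.52 ± 0.11 log2), while the hepatocyte aminotransferase gene Tat was higher (61.2 to 179.7 FPKM, 1.54 ± 0.17 log2). The part of cell makeup in the other results was not tested.

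The adult and newborn levels were also set against those under the other receptor and ligand pair, CITCO in hCAR-TG mice, in which ligand, receptor and genotype differ together. The age differences of the 2 pairs differed for 3902 genes (31.8%), 2573 (20.9%) relatively higher and 1329 (10.8%) relatively lower with TCPOBOP in adults. Genes raised by CITCO over corn oil at both ages in hCAR-TG liver, which were chosen in libraries outside the TCPOBOP comparison, numbered 144. Of these 87 were higher and 29 lower in TCPOBOP adults than in TCPOBOP newborns (median 0.47), and 87 and 33 in wild type liver under corn oil (median 0.54). Over all tested genes 23.8% were higher and 40.3% lower under TCPOBOP, and 25.2% and 44.9% under corn oil.

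Cyp2b10 was at 435 ± 27.99 FPKM in CITCO newborns and 1226 ± 31.03 FPKM in CITCO adults (1.49 ± 0.26 log2), a larger adult excess than with TCPOBOP in value, but the difference of -0.88 ± 0.36 log2 missed the threshold (limma adjusted p = 0.0713). It was called after rescaling (-1.004), with array weights (-0.82) and in a fit of the compared libraries alone (-0.88). Cyp2c29, level with age under TCPOBOP, was at 409 ± 73.99 FPKM in newborns and 4445 ± 385 FPKM in adults with CITCO, and here the difference was called (-3.41 ± 0.55, limma adjusted p = 0.000128). Gstm3 had an adult excess with both, from 29.4 to 2133 FPKM with CITCO, and the excess was smaller with TCPOBOP (-2.83 ± 0.20, limma adjusted p = 1.57e-09). Cyp2a5 (-2.39 ± 0.31), Cyp2e1 (-2.45 ± 0.15) and the organic anion carrier gene Slco1a1 (-3.09 ± 0.29) also had a relatively lower day 60 minus day 5 difference with TCPOBOP. The Cyp2a5 level itself was higher with TCPOBOP than with CITCO at both ages in value. It was at 191 against 14.3 FPKM in newborns and 1005 against 417 FPKM in adults.

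Among drug-processing genes the largest difference in the other direction was in Cyp2b9, a P450 gene of newborn and female liver. It was at 115, 137 and 113 FPKM in newborns and 73.2, 104 and 89.6 FPKM in adults under TCPOBOP, whereas with CITCO it was at 142 ± 4.29 and 1.73 ± 0.113 FPKM (5.25 ± 0.82, limma adjusted p = 0.000117). Sult1e1 (3.87 ± 0.31) and Sult3a1 (3.74 ± 0.18), at 1.04 and 0.193 FPKM in CITCO adults, also stood relatively higher with TCPOBOP. For the cell cycle list the CITCO age difference in hCAR-TG liver had a median of -2.23. In wild type liver the median was -2.07 under corn oil and -0.31 under TCPOBOP. The age difference of hCAR-TG livers under corn oil, which share the genotype of the CITCO livers, was not computed. Erythroid markers had a median age difference of -2.36 with CITCO and -1.29 with TCPOBOP. It was called relatively higher with TCPOBOP for 20 of 28 and lower for 0, beside 20.9% and 10.8% of all tested genes. The part of blood-forming cells in the cell cycle difference between the pairs was not tested. Cdk1 was at 8.99 and 0.582 FPKM with CITCO, and the difference between the pairs was 2.54 ± 0.13 log2 (limma adjusted p = 3.44e-11).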

How the data were processed

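Liver RNA was measured by sequencing of stranded mRNA libraries, per the labels' protocols, in 24 libraries of 8 groups of 3. The authors deposited 1 table per library with an FPKM and its interval bounds for each entry, per the file headers. The genome build was mm10, per the submitters' processing notes, and the aligner, the quantification tool, their settings and the use of strand are not given in the sources used here. Each table held 24885 entries and 24342 symbols. Entries of 279 symbols found at several loci were summed, 27 date-like entries (symbols in the form of a calendar date) were kept apart, and 5 genes with a failed estimate were left out, leaving 24339 genes. No counts or read totals were used, so depth is known only in relative terms, from the interval widths of 4396 genes.

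The 12282 genes that reached 1 FPKM in 3 or more libraries were tested on log2(FPKM + 1) with limma 3.58.1 in R 4.3.3 (lmFit, contrasts, eBayes with trend and robust), in 1 model of all 8 groups, which left 16 residual degrees of freedom. All tests are two-sided, with Benjamini-Hochberg adjustment over all tested genes. The pseudocount of 1 understates differences of genes near 1 FPKM. The fit was tested on simulated data. Values are means ± SD and differences ± SE, n = 3.

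The comparison, its 49 gene lists (1206 genes) and its tests were chosen with earlier results of these data known. Named genes were Nr1i3, Nr1i2 and Cyp2b10, the 10 largest differences each way (at least 10 FPKM), up to 4 called members per list, the 10 most TCPOBOP-induced drug-processing genes, the leading closed, opened (the reverse of closed) and crossed genes (at least 5 FPKM), and the 6 largest CITCO differences each way. Other genes named (such as Cyp3a11, Por, Nqo1, Mcm6, Ccnd1, Gadd45a, Gadd45b, Sult2a7, Sult2a8, Hsd3b5, Pnliprp1, Ugt1a1 and members named to complete a count) and the replication, mitosis and Sult2a groupings were chosen after their values were seen.

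Loci are those of the files, with 1 added to starts. Promoters are RefSeq's (GRCm38.p6), matched by symbol. The alternatives tried were a filter at 5 FPKM or none, array weights, median-of-ratios rescaling, a replicate block, a smaller pseudocount (0.1), a constant prior, a fit of the compared libraries alone, a call that also needs a 2-fold difference, leaving out each library, and, chosen after seeing the data, leaving out 3 libraries with pancreatic transcripts.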

Additional observations from a re-analysis of the deposited data

Results flagged for a closer look

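The age difference under TCPOBOP differed from that under corn oil in a test of the difference itself for 2879 genes, and from that under CITCO in hCAR-TG mice for 3902 genes. The values below are these differences in log2(FPKM + 1), with day 60 minus day 5 taken first within each treatment.

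Relatively higher in TCPOBOP adults than in corn oil adults, each against newborns, were genes whose age difference closed, namely D17H6S56E-5 (4.24) and the cell cycle genes Ube2c (3.70), Ccnb2 (3.36), Racgap1 (2.75), Cdk1 (2.69), Prc1 (2.62) and Kif22 (2.25). Of the 8 cell cycle genes that crossed, the rule named Cdc20 (4.07), Cdca3 (3.46), Ccnb1 (3.29) and Rrm2 (3.26), and Fam84a crossed with them (3.09). An age difference opened upwards for Sult3a1 (3.88), Meig1 (3.57), the bone morphogenetic protein antagonist gene Chrdl2 (3.50), Krt4 (2.82) and Acaca (1.62).

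Relatively lower were Aox3, which closed (-2.51), the P450 genes Cyp2c67 (-2.85), Cyp2c69 (-2.75), Cyp2c40 (-2.65), Cyp2e1 (-2.29) and Cyp4a32 (-2.27), which crossed, and Ggt1 (-2.98), Cldn10 (-2.60) and Sertm1 (-2.53), whose age difference opened downwards.

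Against CITCO, the day 60 minus day 5 difference was relatively higher with TCPOBOP for Cyp2b9 (5.25), Sult1e1 (3.87), Sult3a1 (3.74), the monocarboxylate transporter gene Slc16a1 (1.76), Cyp1a1 (1.68) and Cyp4a10 (1.61). Of these, Cyp2b9, Slc16a1 and Cyp4a10 were lower in adults in value under both ligands (-0.46 with TCPOBOP, not called, and -5.71 with CITCO for Cyp2b9, -0.62 and -2.38 for Slc16a1, and -0.94 and -2.55 for Cyp4a10). The difference was relatively lower for Cyp2c29 (-3.41), Slco1a1 (-3.09), Gstm3 (-2.83), the N-acetyltransferase gene Nat8 (-2.71), Cyp2e1 (-2.45) and Cyp2a5 (-2.39). The call for Cyp4a10 was lost in 4 fits that left out 1 library and without the 3 libraries with pancreatic transcripts.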

How the results depend on the processing

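Under the alternatives tried no TCPOBOP age difference of a gene named by rule changed sign while called. The same held for the corn oil change of the named closed, opened and crossed genes and for the named CITCO differences. Corn oil changes of other genes, and values of genes named after they were seen, were not compared in this way. A filter at 5 FPKM, which tests fewer genes, gave 5140 calls under TCPOBOP (2821 lower), 5568 under corn oil, 62 closed and 25 opened genes. A call that also needs a 2-fold difference gave 1462 under TCPOBOP, 1995 under corn oil, 534 for the change against corn oil and 598 against CITCO. Array weights gave 5037 for the change against corn oil, 6815 against CITCO and 500 crossed genes, and the cause was not tested. Rescaling gave 4673 genes higher at day 60. A pseudocount of 0.1 gave 77 closed and 24 opened genes, and here too the cause was not tested. Leaving out 1 library gave 7281 to 7477 calls under TCPOBOP (2586 to 2818 higher, 4493 to 4775 lower), 8153 to 8286 under corn oil, 2385 to 2828 for the change against corn oil, 3204 to 3867 against CITCO, and 100 to 123 closed, 33 to 43 opened and 179 to 238 crossed genes. Without the 3 libraries with pancreatic transcripts, chosen after seeing the data, 7173 genes were called under TCPOBOP, 2798 against CITCO and 162 crossed.

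Same-numbered libraries did not visibly deviate together: the correlations were -0.051, -0.025 and 0.081 under TCPOBOP and -0.026, -0.068 and -0.017 under corn oil. Differently numbered libraries gave -0.069 to 0.091 under TCPOBOP and -0.074 to 0.111 under corn oil. There was thus no sign that the numbers pair the samples, though so few libraries cannot exclude it. With the replicate block 7823 genes were called under TCPOBOP (2903 higher, 4920 lower), 8574 under corn oil, 2822 for the change against corn oil and 3826 against CITCO, with 119 closed, 39 opened and 231 crossed genes, and among the named genes only the call of Cyp2b10 was lost. Read depth could not be used to set a limit for genes near 0 FPKM.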

Other observations

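Other gene groups are given here beside the share over all tested genes, 23.8% higher and 40.3% lower at day 60 under TCPOBOP. Acute phase genes were lower in adults in 17 of 26 cases and higher in 8, with a summed level of 36922 to 40181 FPKM in newborn and 18143 to 19957 FPKM in adult libraries. Serpina3k went the other way, at 21.03, 18.7 and 20.4 FPKM in newborns and 2929, 3129 and 3610.0 FPKM in adults (7.26 ± 0.16 log2), while Ahsg, the fetuin gene, was at 16526, 18490.0 and 17307 FPKM and 2429.9, 2322 and 2365 FPKM (-2.88 ± 0.10 log2). In the growth hormone and IGF axis 12 of 21 genes were lower and 4 higher, among them Socs2, the feedback inhibitor of growth hormone signalling (18.3, 23.2 and 20.9 FPKM in newborns, 1.397, 0.802 and 0.643 FPKM in adults, -3.496 ± 0.23 log2), and Cux2, a transcription factor of female liver (4.12 to 0.0772 FPKM).

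Cytosolic ribosomal protein genes were lower in adults in 32 of 39 cases and higher in 0 as deposited (median -0.34), and lower in 17 and higher in 2 after rescaling. Respiratory chain genes were higher in 10 and lower in 3 of 38 cases, fewer calls than the 64.1% over all tested genes, and after rescaling higher in 22 and lower in 0. Genes of endoplasmic reticulum and integrated stress were higher in 13 and lower in 5 of 27 cases (median 0.27, against 0.64 under corn oil), and the change was relatively lower for 15 and higher for 2. In the cholangiocyte list the ileal bile acid transporter gene Slc10a2 was higher in adults (0.138, 0.188 and 0.345 FPKM, then 28.8, 27.2 and 25.7 FPKM, 4.53 ± 0.12 log2), while the stem cell glycoprotein gene Prom1 was lower (91.7, 93.6 and 88.5 FPKM, then 22.5, 19.6 and 17.5 FPKM, -2.15 ± 0.18 log2).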
